A study of Oryctolagus cuniculus with 9 samples.

Results

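The interferon response was followed here through 9 genes of the rabbit (Oryctolagus cuniculus) vocal fold, taken by gene name from a table of 20525 genes. They are the RNA sensors IFIH1 and DDX58, the transcription factors IRF1, IRF7, STAT2 and IRF9, the antiviral effectors RSAD2 and MX1, and the chemokine CXCL10. All 9 were found and all 9 were among the 17344 genes tested. The libraries came from injured folds treated with a hydrogel labelled SOT, from injured folds left without treatment and from normal folds without injury, with 3 libraries in each group. Both injured groups were sampled 1 week after injury, and what the letters SOT stand for is not given in the labels. Strain, sex, age and the number of animals are not stated in the labels, and nothing there says that replicates were separate animals, so p-values reflect only library-to-library spread, which may be technical. The labels name the cells as vocal cord histiocytes, but summed markers of stratified epithelium were between 10236 and 30842 normalised counts (CPM, counts scaled to a common library size) and those of skeletal muscle between 556 and 21016 CPM, so each library was read as whole tissue.

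Interferons are secreted proteins that cells make when sensors meet foreign or misplaced nucleic acids. MDA5, encoded by IFIH1, and RIG-I, encoded by DDX58, recognise double-stranded RNA in the cytoplasm and signal through the adaptor MAVS to transcription factors of the IRF family. Type I interferons bind IFNAR1 and IFNAR2, and the kinases JAK1 and TYK2 then act through STAT2 and IRF9, parts of a complex called ISGF3, which switches on antiviral genes. Interferon-gamma, made mainly by T cells and NK cells, acts through IFNGR1 and IFNGR2 and raises IRF1 and chemokines such as CXCL10. IRF7 is itself induced by interferon and amplifies the production of type I interferons. These roles are known mostly from human and mouse work.

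Total counts were between 48444181 and 49434268 in SOT libraries, between 49771566 and 50338111 in untreated libraries and between 44755718 and 45521838 in normal libraries. SOT replicate 3 stood apart from the other libraries in genes that bear on the interferon response. Its 15 measured T and NK cell markers summed to 154 CPM, against 39.7 and 35.1 CPM in SOT replicates 1 and 2, 26.0 to 37.9 CPM in untreated and 35.8 to 44.0 CPM in normal libraries. All 15 of these markers were at their highest of the 9 libraries in SOT replicate 3, while 11.5% of all tested genes were. In bulk tissue, more cells of a type and more RNA per cell cannot be told apart. For the 9 genes, results that involve the SOT group are therefore given with and without this library.

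Injury alone went with higher levels of all 9 genes. In the untreated folds every library lay above every normal library for all 9 genes, a separation that 28.0% of all tested genes showed, and none lay below, as 27.1% of all tested genes did. In edgeR's quasi-likelihood fit over all 9 libraries, 4 of the 9 genes rose and 5 did not pass the adjusted p threshold of 0.05, where 17.7% of all tested genes were called higher. The genes that rose were RSAD2, IRF1, DDX58 and STAT2. The median log2 fold change was 1.20 over the 9 genes and -0.02 over all tested genes. That fit takes its estimate of the spread from all 3 groups. In a fit of the 6 untreated and normal libraries alone all 9 genes rose, where 3392 of 16869 tested genes were called higher. All 9 also rose when SOT replicate 3 was left out, where 3254 of 17658 tested genes were called higher.

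With SOT treatment the 9 genes scattered. The comparisons share libraries, so their values are given side by side and are not independent. None of the 9 passed in SOT against untreated folds, where 0.0115% of all tested genes were called. DESeq2 also called none of the 9, where it called 229 of 17304 genes higher and 453 lower. At an unadjusted p under 0.05 there was only RSAD2 of the 9, and it was lower, where 2194 of all 17344 tested genes were under that mark. RSAD2 and IRF1 lay below every untreated library in all 3 SOT libraries, a separation that 12.4% of all tested genes showed in that direction. None of the 9 lay above every untreated library in all 3 SOT libraries, as 7.4% of all tested genes did. Against normal folds, 8 of the 9 genes rose and IFIH1 did not pass, where 9.01% of all tested genes were called higher and 7.67% lower. All 9 lay above every normal library, as 17.8% of all tested genes did, while 18.6% of all tested genes lay below. The count of 8 was 3 in a fit of the 6 SOT and normal libraries alone, where 692 of 16908 tested genes were called higher. It was 1, 3 and 5 without normal replicates 1, 2 and 3, where 577, 790 and 1340 genes were called higher. Without untreated replicate 1, 2 or 3 it was 5, where 1263, 1194 and 916 genes were called higher. These leave-one-out fits tested between 17667 and 17715 genes. DDX58 kept its call in all of the fits named. Without SOT replicate 3, 8 of the 9 rose as well, but with IFIH1 among them in place of IRF9. In that fit 1987 of 17658 tested genes were called higher.

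**Figure D1:**
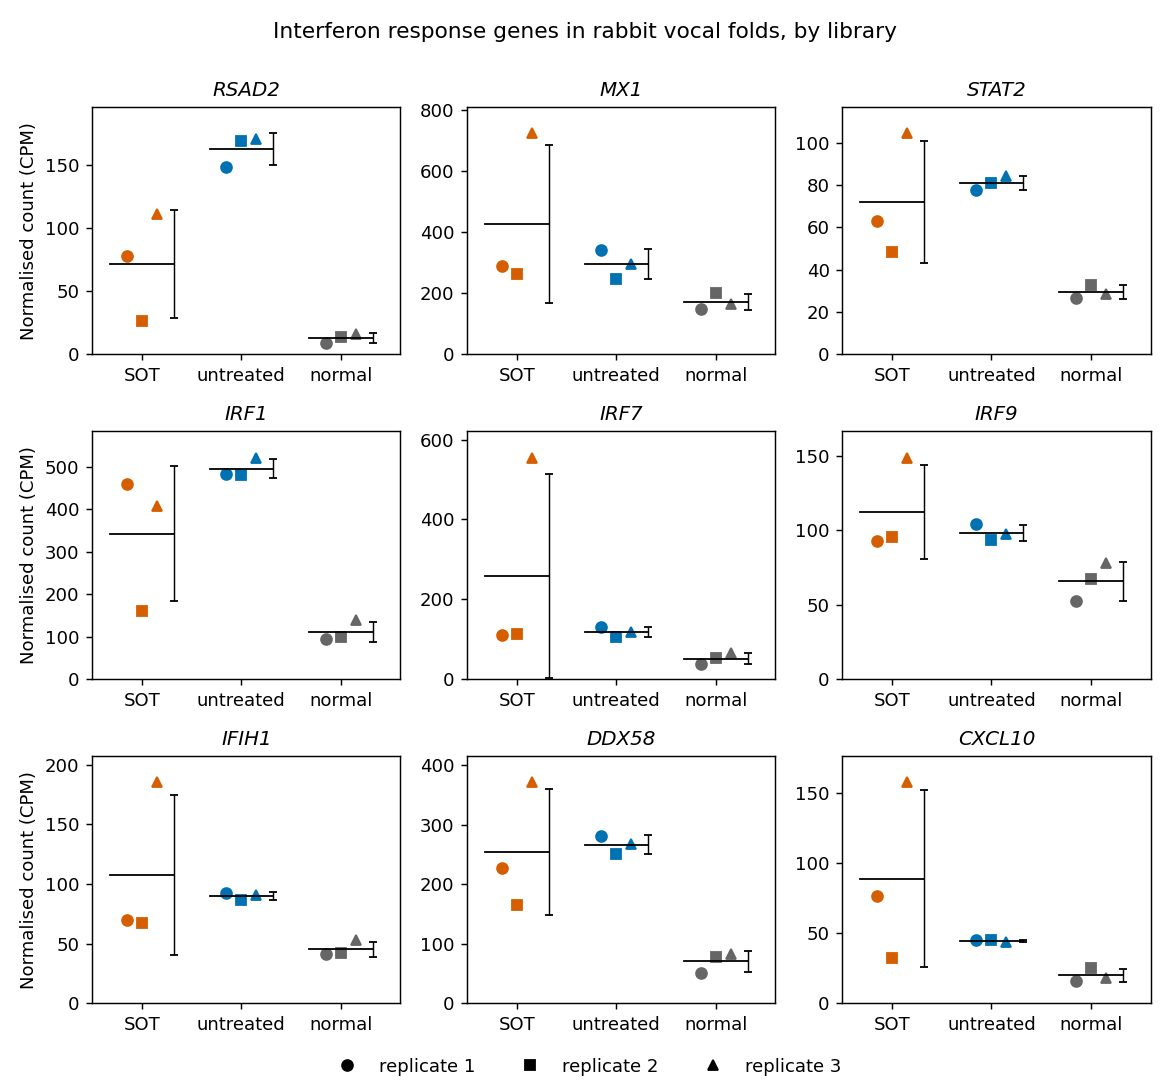
Normalised counts (CPM, linear axis from 0) of the 9 genes in SOT, untreated and normal libraries, with replicates 1, 2 and 3 as circles, squares and triangles. Black lines give the mean and bars the SD (n = 3). The untreated libraries lie close together, and for IRF7 the SOT libraries lie between 110.1 and 555 CPM.

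The sensors came first in the pathway and differed in how far they followed injury. DDX58 lies on chromosome 1 at 20943952 to 21010226 of the build OryCun2.0, on the plus strand. Its level was 226, 165 and 371 CPM in SOT replicates 1, 2 and 3, 282, 251 and 267 CPM in the untreated libraries and 50.7, 78.6 and 82.5 CPM in the normal libraries. Both injured groups lay well above normal folds, and the SOT libraries reached below and above the untreated ones. DDX58 rose in untreated against normal folds (log2 fold change 1.92, SE 0.30, adjusted p = 0.00297) and in SOT against normal folds (1.85, SE 0.30, adjusted p = 0.00878). Without SOT replicate 3 the log2 fold change of DDX58 was 1.499 against normal folds (adjusted p = 0.00711) and -0.41 against untreated folds (adjusted p = 0.629), where it was -0.07 with all libraries. It was the only one of the 9 genes whose call in SOT against normal folds was kept whichever of the 9 libraries was left out.

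IFIH1 lies on chromosome 7 at 101418163 to 101475673, on the minus strand. It had 70.0, 67.3 and 185 CPM in SOT libraries, 92.9, 86.7 and 90.6 CPM in untreated libraries and 41.5, 42.1 and 52.7 CPM in normal libraries. SOT replicates 1 and 2 lay below all untreated libraries and SOT replicate 3 was 1.99 times the highest of them. The log2 fold change of untreated against normal folds was 0.99 (SE 0.36, adjusted p = 0.0675, and 0.00153 in the fit of the 6 libraries compared). For SOT against normal folds it was 1.24 (SE 0.36, adjusted p = 0.0505, and 0.112 in the fit of the 6 libraries compared). Without SOT replicate 3 it was 0.63, and IFIH1 passed (adjusted p = 0.0152). In SOT against untreated folds it was 0.26 with all libraries (adjusted p = 0.807) and -0.35 without SOT replicate 3 (adjusted p = 0.451). On FPKM, the authors' length-scaled unit, the level of DDX58 was between 2.27 and 3.68 times that of IFIH1 in SOT libraries, between 3.29 and 3.44 times in untreated libraries and between 1.39 and 2.12 times in normal libraries. The ratio did not overlap between the injured groups and normal folds, and its lowest value in SOT folds was that of replicate 3.

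Among the transcription factors, IRF1 had the highest mean FPKM in each group. It binds the promoters of interferon-gamma target genes and also responds to other inflammatory signals, and it lies on chromosome 3 at 15530701 to 15537292 on the minus strand. Its level was 458, 161 and 406 CPM in SOT libraries, 483, 481 and 521 CPM in untreated libraries and 95.3, 99.7 and 138 CPM in normal libraries. SOT replicate 2 was close to the highest normal library, while the other SOT libraries lay just under the untreated ones. IRF1 rose in untreated against normal folds (log2 fold change 2.16, SE 0.36, adjusted p = 0.00351). Its rise in SOT against normal folds was 1.62 (SE 0.35, adjusted p = 0.0194), and leaving out normal replicate 1 (adjusted p = 0.0738) or 2 ended that call. That rise was 1.51 without SOT replicate 3 (adjusted p = 0.0337). In SOT against untreated folds the log2 fold change was -0.53 with a 95% interval from -1.32 to 0.25 (adjusted p = 0.561), and -0.65 without SOT replicate 3 (adjusted p = 0.645).

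IRF7 had the widest spread in the SOT group. The gene is placed on a short unplaced scaffold, at 2392 to 5075 on the plus strand. It had 110.1, 113 and 555 CPM in SOT libraries, 130.2, 104 and 119 CPM in untreated libraries and 36.9, 51.8 and 65.0 CPM in normal libraries. SOT replicates 1 and 2 lay within the range of the untreated libraries, and SOT replicate 3 was 4.26 times the highest untreated library. The log2 fold change of untreated against normal folds was 1.20 (SE 0.59, adjusted p = 0.153, and 0.00677 in the fit of the 6 libraries compared). Against normal folds, IRF7 in SOT folds rose by 2.34 (SE 0.61, adjusted p = 0.0362), a call lost in 6 of the 9 leave-one-out fits. It rose by 1.15 without SOT replicate 3 (adjusted p = 0.0150). In SOT against untreated folds the log2 fold change was 1.14 with all libraries (adjusted p = 0.469) and -0.039 without SOT replicate 3 (adjusted p = 0.972).

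STAT2 and IRF9 act within ISGF3. STAT2, on chromosome 4 at 39918645 to 39937020 on the minus strand, had 63.1, 48.6 and 104 CPM in SOT libraries, 77.6, 81.1 and 84.2 CPM in untreated libraries and 26.7, 33.0 and 28.8 CPM in normal libraries. It rose in untreated against normal folds (log2 fold change 1.46, SE 0.25, adjusted p = 0.00412) and in SOT against normal folds (1.29, SE 0.25, adjusted p = 0.0138, and 0.0561 without normal replicate 1). Without SOT replicate 3 STAT2 rose by 0.95 against normal folds (adjusted p = 0.00703), and against untreated folds its log2 fold change was -0.50 (adjusted p = 0.380), where it was -0.17 with all libraries. IRF9, on chromosome 17 at 44207910 to 44215923 on the plus strand, had 93.2, 95.3 and 149 CPM in SOT libraries, 104, 93.7 and 97.3 CPM in untreated libraries and 52.2, 67.0 and 78.2 CPM in normal libraries. Its SOT replicates 1 and 2 were level with the untreated libraries and replicate 3 was above them. The log2 fold change of IRF9 was 0.58 in untreated against normal folds (SE 0.21, adjusted p = 0.0641, 0.0282 in the fit of the 6 libraries compared). It rose by 0.77 in SOT against normal folds (SE 0.21, adjusted p = 0.0401), a call lost in 7 of the 9 leave-one-out fits, among them that without SOT replicate 3 (0.55, adjusted p = 0.0582). In SOT against untreated folds it was 0.19 with all libraries and -0.024 without SOT replicate 3. IRF9 had the smallest change of the 9 genes in both comparisons with normal folds. On FPKM, the ratio of IRF9 to STAT2 was between 1.05 and 1.44 in SOT libraries, between 0.851 and 0.991 in untreated libraries and between 1.44 and 2.00 in normal libraries.

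**Figure D2:**
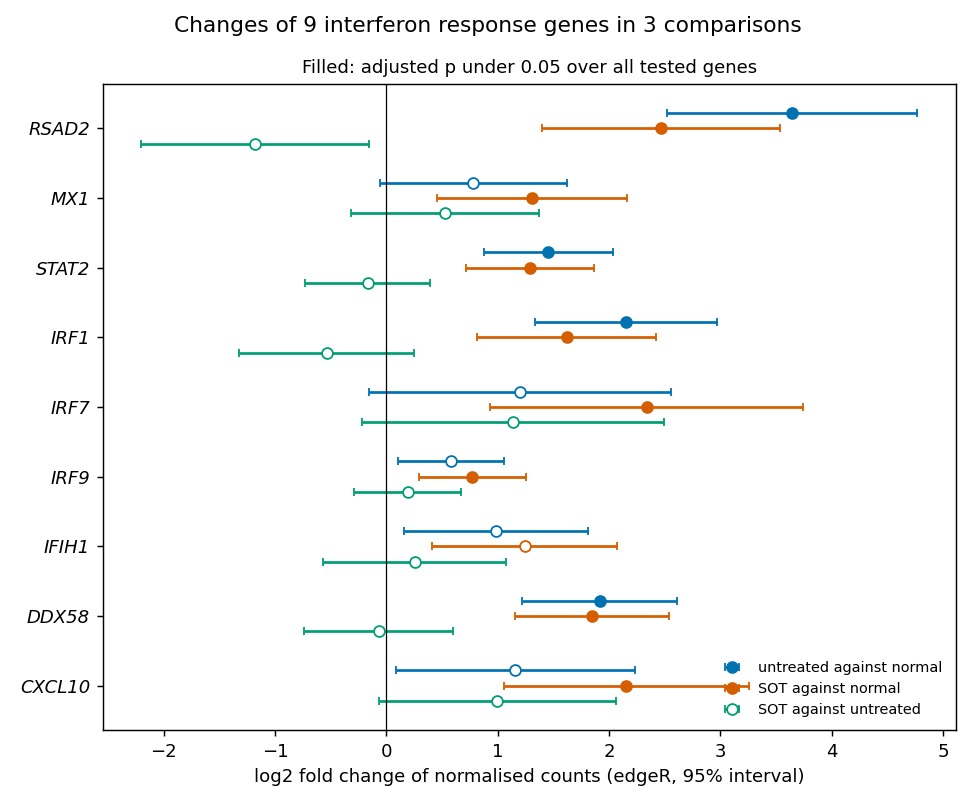
The log2 fold change (edgeR, horizontal axis) of each gene with its 95% interval in untreated against normal, SOT against normal and SOT against untreated folds, with filled points for an adjusted p under 0.05 over all tested genes. RSAD2 has the largest change in untreated against normal folds, 3.64, and every interval of SOT against untreated folds crosses 0 except that of RSAD2.

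The effector RSAD2 encodes viperin, an enzyme that makes a nucleotide able to stop viral RNA synthesis. It lies on an unplaced scaffold at 3370502 to 3384321 on the plus strand. RSAD2 had 77.9, 26.5 and 111 CPM in SOT libraries, 148, 169 and 170.2 CPM in untreated libraries and 8.92, 14.0 and 16.1 CPM in normal libraries. The 3 groups did not overlap, with SOT folds in between. It rose in untreated against normal folds (log2 fold change 3.64, SE 0.49, adjusted p = 0.00169) and in SOT against normal folds (2.46, SE 0.47, adjusted p = 0.0128, and 0.0524 without normal replicate 1). The log2 fold change of SOT against untreated folds was -1.18 with a 95% interval from -2.20 to -0.16 (unadjusted p = 0.0285, adjusted p = 0.331). Without SOT replicate 3 the log2 fold change of RSAD2 was -1.61 against untreated folds (adjusted p = 0.357) and 2.03 against normal folds (adjusted p = 0.0185).

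MX1, a GTPase that binds viral nucleoproteins, lies on an unplaced scaffold at 98673 to 115766 on the plus strand. It had 289.7, 265 and 723 CPM in SOT libraries, 343, 246 and 298 CPM in untreated libraries and 148, 202 and 164 CPM in normal libraries. Untreated folds lay above normal folds by a log2 fold change of 0.78 (SE 0.37, adjusted p = 0.136, and 0.0159 in the fit of the 6 libraries compared). Against normal folds, MX1 in SOT folds rose by 1.31 (SE 0.37, adjusted p = 0.0458), a call lost in 6 of the 9 leave-one-out fits, under the replicate block (0.0762) and in the fit of the 6 libraries compared (0.0977). The rise was 0.72 without SOT replicate 3 (adjusted p = 0.0378). Against untreated folds the log2 fold change was 0.53 with all libraries and -0.053 without SOT replicate 3. Another 2 genes of the table are described as the related Mx2, and reads shared between such copies would make the level of MX1 uncertain to that extent. Their sum was 161, 134 and 348 CPM in SOT libraries, between 183 and 202 CPM in untreated libraries and between 64.5 and 69.5 CPM in normal libraries, so SOT replicate 3 was again the highest.

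CXCL10, which draws T and NK cells through the receptor CXCR3, lies on chromosome 15 at 74368975 to 74371297 on the plus strand. Its level was 76.8, 32.8 and 158 CPM in SOT libraries, 45.4, 44.9 and 43.5 CPM in untreated libraries and 16.3, 25.2 and 18.5 CPM in normal libraries. The untreated libraries were almost identical, with an SD of 2.22% of the mean, whereas the SD of the SOT libraries was 71.2% of theirs. SOT replicates 1 and 3 lay above and replicate 2 below all untreated libraries. The log2 fold change of untreated against normal folds was 1.16 (SE 0.47, adjusted p = 0.0909, and 0.00422 in the fit of the 6 libraries compared). CXCL10 rose by 2.16 in SOT against normal folds (SE 0.48, adjusted p = 0.0214), a call lost without any of normal replicates 1, 2 and 3, with the highest adjusted p of 0.0803. Its rise was 1.48 without SOT replicate 3 (adjusted p = 0.0241). In SOT against untreated folds the log2 fold change was 1.00 with a 95% interval from -0.07 to 2.07 (adjusted p = 0.422), and 0.33 without SOT replicate 3 (adjusted p = 0.794).

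The neighbours CXCL9 and CXCL11 act on the same receptor and lie with CXCL10 on 56.9 kb of chromosome 15. CXCL9 had 8.01, 6.37 and 50.7 CPM in SOT libraries, 3.07, 4.86 and 4.52 CPM in untreated libraries and 3.64, 3.89 and 6.57 CPM in normal libraries. Unlike CXCL10, CXCL9 had overlapping values in untreated and normal folds (log2 fold change -0.18, adjusted p = 0.874). CXCL11 had 23.5, 10.9 and 105 CPM in SOT libraries, 16.1, 24.7 and 19.7 CPM in untreated libraries and 4.50, 3.87 and 8.95 CPM in normal libraries. CXCL11 rose in SOT against normal folds (log2 fold change 3.01, SE 0.79, adjusted p = 0.0356, and 1.60 without SOT replicate 3), a call lost in 6 of the 9 leave-one-out fits. For all 3 chemokines SOT replicate 3 was the highest of the 9 libraries. The receptor CXCR3 also had its highest level there, 12.9 CPM, against 3.80 and 1.63 CPM in SOT replicates 1 and 2, 2.16 to 3.25 CPM in untreated and 1.77 to 4.002 CPM in normal libraries.

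Levels can be compared between genes on FPKM. In SOT folds the order of means ran from MX1 at 159 ± 100.3 FPKM to RSAD2 at 20.7 ± 12.6 FPKM (SD, n = 3), and no neighbours in that order were separated by their libraries. In untreated folds it ran from IRF1 at 209 ± 11.7 FPKM through MX1, DDX58, IRF7, RSAD2, CXCL10, STAT2 and IRF9 to IFIH1 at 17.7 ± 0.744 FPKM. All neighbours there were separated except DDX58 and IRF7, at 59.6 ± 3.77 and 58.0 ± 6.78 FPKM. In normal folds MX1, at 58.9 ± 9.81 FPKM, overlapped IRF1, at 48.0 ± 10.9 FPKM, and RSAD2 was the lowest at 3.48 ± 1.03 FPKM. RSAD2 thus stood at rank 9 in SOT folds, 5 in untreated folds and 9 in normal folds.

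The spread among the SOT libraries was larger than in either other group for every one of the 9 genes. The SD as a share of the mean CPM was between 28.1% for IRF9 and 98.7% for IRF7 in SOT folds, between 2.22% for CXCL10 and 16.3% for MX1 in untreated folds and between 10.9% for STAT2 and 28.4% for RSAD2 in normal folds. On the log2 scale the median SD of the 9 genes was 0.83, 0.08 and 0.29 in SOT, untreated and normal folds, against 0.30, 0.17 and 0.24 for all tested genes. The SD of IRF7 in SOT folds exceeded that of 94.5% of all tested genes and the SD of IRF9 exceeded that of 58.7%.

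Each SOT library had its own pattern. SOT replicate 3 was the highest SOT library for 8 of the 9 genes, all but IRF1, and the highest of all 9 libraries for 7, all but IRF1 and RSAD2. Among all tested genes it was the highest SOT library for 34.8% and the highest of the 9 for 11.5%. SOT replicate 2 was the lowest SOT library for 7 of the 9 genes, against 34.3% of all tested genes, and was below the untreated mean for all 9. SOT replicate 1 was below the untreated mean for 8 of the 9, with CXCL10 the exception at 1.72 times that mean.

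The genes also parted from each other within SOT replicate 3. Relative to the untreated mean, IRF7 was at 4.71 times, CXCL10 at 3.54 times, MX1 at 2.45 times and IFIH1 at 2.06 times in that library. IRF9, DDX58 and STAT2 were between 1.29 and 1.51 times. IRF1 was at 0.820 times and RSAD2 at 0.684 times the untreated mean. On FPKM, the ratio of IRF7 to RSAD2 was 2.66, 8.03 and 9.41 in SOT libraries, between 1.16 and 1.65 in untreated libraries and between 6.96 and 7.80 in normal libraries. SOT replicates 2 and 3, opposite in level, thus shared a ratio near that of normal folds.

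**Figure D3:**
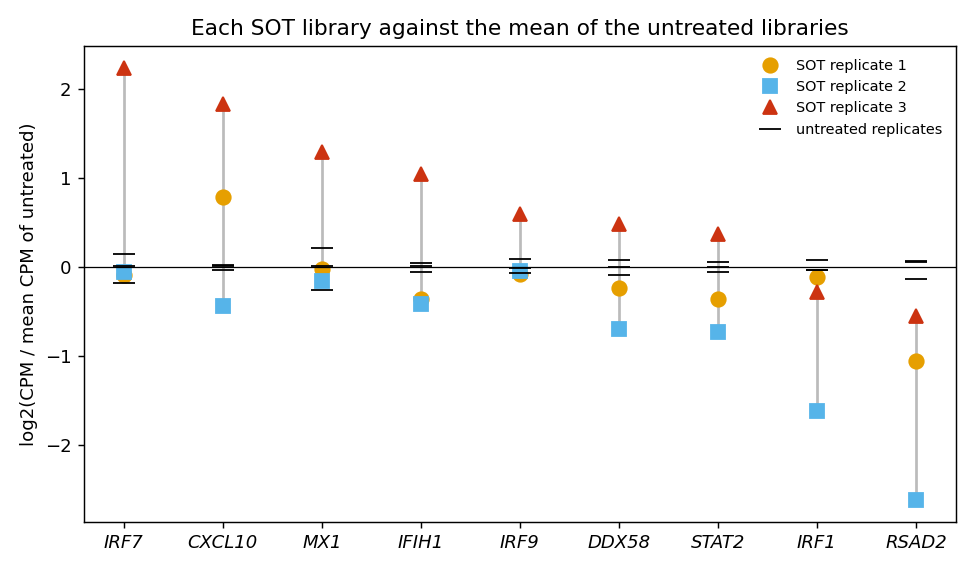
The log2 ratio of each SOT library's CPM to the mean of the untreated libraries for the 9 genes, with the untreated libraries as black dashes. SOT replicate 3 is above the untreated libraries for 7 genes and below them for IRF1 and RSAD2, and SOT replicate 2 is below the untreated mean for all 9.

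The other genes of the pathway came from a list of 133, of which 102 were measured and 101 tested. In untreated against normal folds 54 rose, 1 fell and 46 did not pass, where 17.7% of all tested genes were called higher and 15.1% lower. In the fit of the 6 libraries compared 75 rose, where 3392 of 16869 genes did. The median log2 fold change was 1.04 against -0.02 over all tested genes. In SOT against normal folds 51 rose, 1 fell and 49 did not pass, with a median of 1.09. Of all tested genes 9.01% were called higher and 7.67% lower there. But 18 rose in the fit of the 6 libraries compared, where 692 of 16908 genes did. Without normal replicates 1, 2 and 3 there were 9, 17 and 31 that rose, where 577, 790 and 1340 genes did. Without untreated replicates 2 and 3 there were 32 and 25, where 1194 and 916 genes did. These leave-one-out fits tested between 17667 and 17715 genes. None of the 101 in SOT against untreated folds passed in edgeR. An unadjusted p under 0.05 was found for 18, where 2194 of all 17344 tested genes had one. DESeq2 called 5, all lower, where it called 453 of 17304 genes lower. Without SOT replicate 1, 5 passed in edgeR and all of them were lower, where 321 of 17709 genes were called lower. In untreated against normal folds 20 of the 21 pathway genes named by rule and called kept their call whichever library was left out, the exception being TNFAIP3. In SOT against normal folds the same held for 5 of 23, IL10RB, STAT4, MB21D1, EPSTI1 and PTPN6. Beside the counts by role given next, 17.7% of all tested genes were called higher in untreated and 9.01% in SOT against normal folds. The counts by role moved with single libraries too. Without normal replicate 1, those that rose in SOT against normal folds were 1 ligand or receptor, 1 kinase, STAT or IRF, 1 sensor or adaptor, 4 effectors, 0 targets of interferon-gamma and 2 inhibitors. Over all 9 leave-one-out fits these counts ran from 1 to 5, 1 to 6 and 1 to 5 for the roles before effectors. For effectors, targets of interferon-gamma and inhibitors they ran from 4 to 26, 0 to 14 and 2 to 7. The 26 and 14 were found without SOT replicate 2, where 1017 of 17713 tested genes were called higher. In untreated against normal folds the kinases, STATs and IRFs that rose were 5 without untreated replicate 2 or 3 or normal replicate 1, and 7 without normal replicate 2. The effectors that rose there were 30 without SOT replicate 3. The targets of interferon-gamma that rose there were 13 without SOT replicate 3 and 12 without SOT replicate 2. They were 4 without untreated replicate 2 or 3 or normal replicate 1 or 2, and 5 without normal replicate 3. The calls over all tested genes moved too. Those called higher there were 3254 and 3020 without SOT replicates 3 and 2, and 2002 and 1915 without untreated replicates 2 and 3. Without normal replicates 1, 2 and 3 they were 2147, 2290 and 2625.

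The ligands were scarce. The 9 table rows described as alpha or omega interferons held no count in 8 libraries and 15 counts in all in SOT replicate 2, and their highest single count was 4. IFNE, an epithelial type I interferon, had 0, 3 and 5 counts in SOT libraries, 0, 6 and 0 counts in untreated libraries and none in normal libraries. A count of 0 allows up to 3 counts, or 0.0557 to 0.0692 CPM in these libraries, by counting error alone. IFNG, which encodes interferon-gamma, had 0.102, 0.0561 and 1.02 CPM in SOT libraries, 0.293, 0.658 and 0.691 CPM in untreated libraries and 0.300, 0.264 and 0.131 CPM in normal libraries. The IFNG level of SOT replicate 3, resting on 55 counts, was the highest of the 9, and IFNG did not pass in any comparison (adjusted p between 0.388 and 0.877).

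Of the receptors, 5 of 6 measured rose after injury. IFNGR1, the binding chain of the interferon-gamma receptor, averaged 244 ± 41.7 CPM in untreated and 58.7 ± 4.57 CPM in normal folds (SD, n = 3 each; log2 fold change 2.05, SE 0.30, adjusted p = 0.00226). IL10RB, a chain shared by the lambda interferon and IL-10 receptors, averaged 109 ± 14.4 and 29.7 ± 4.70 CPM in untreated and normal folds (1.87, SE 0.15, adjusted p = 0.000282). IFNAR2, IFNAR1 and IFNGR2 rose by 1.52, 1.23 and 1.20 on the log2 scale. IFNLR1, the other chain of the lambda interferon receptor, did not pass, with 37.0 ± 6.34 and 62.4 ± 15.7 CPM in untreated and normal folds (-0.75, adjusted p = 0.161). Its untreated libraries all lay below the normal ones, as they did for 27.1% of all tested genes. IFNLR1 was called lower in the fit of the 6 libraries compared and without SOT replicate 3. The same 5 rose in SOT against normal folds, among them IL10RB by 1.25 (SE 0.15, adjusted p = 0.00348), while IFNGR1 and IFNAR2 rose by 1.21 and 1.09 with calls lost in 6 and 5 of the 9 leave-one-out fits. IFNGR1 was 188, 143 and 76.8 CPM in SOT libraries, so SOT replicate 3 was the lowest of the SOT libraries for this receptor chain, unlike for the chemokines.

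Of 14 kinases, STATs and other IRFs, 11 rose in untreated and 8 in SOT folds against normal folds. BATF2, an interferon-induced partner of IRF1, was 19.3, 6.49 and 12.5 CPM in SOT libraries, 28.9, 38.6 and 43.9 CPM in untreated libraries and 1.55, 5.08 and 3.73 CPM in normal libraries. It rose in untreated against normal folds by 3.42 (SE 0.52, adjusted p = 0.00253) and in SOT against normal folds by 1.88 (adjusted p = 0.0355, lost in 7 of the 9 leave-one-out fits). The kinase gene JAK2 rose by 1.35 and STAT4 by 1.74 in untreated against normal folds, and STAT4 rose by 1.51 in SOT against normal folds (adjusted p = 0.00544).

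Of 12 other sensors and adaptors, 6 rose and 1 fell in untreated against normal folds, and 5 rose and 1 fell in SOT against normal folds. The DNA sensor cGAS, listed as MB21D1, averaged 5.36 ± 1.72 CPM in SOT, 5.56 ± 0.772 CPM in untreated and 1.299 ± 0.445 CPM in normal folds, and rose by 2.04 (adjusted p = 0.00961) and 2.10 (adjusted p = 0.00352) in the injured groups against normal folds. Its adaptor STING, listed as TMEM173, rose by 1.60 (adjusted p = 0.00818) in untreated and by 1.41 (adjusted p = 0.0244, lost in 3 of the 9 leave-one-out fits) in SOT folds against normal folds. DHX58, the third member of the family of DDX58 and IFIH1, rose by 1.23 in untreated (adjusted p = 0.00880) and by 1.04 in SOT folds (adjusted p = 0.0298, lost in 4 of the 9 leave-one-out fits). The gene that fell in both was MAVS, named here after its values were seen, at 66.7 ± 3.09 CPM in SOT, 58.6 ± 4.43 CPM in untreated and 101 ± 16.7 CPM in normal folds. Its log2 fold change was -0.78 in untreated against normal folds (adjusted p = 0.00333) and -0.60 in SOT against normal folds (adjusted p = 0.0189). The call of MAVS in SOT folds was not kept in the fit of the 6 libraries compared, nor in every leave-one-out fit. The adaptor of both RNA sensors was thus lower in the folds in which DDX58 was higher.

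Most antiviral effectors were at their highest in SOT replicate 3. Of 38 tested, 18 rose in untreated against normal folds and 22 in SOT against normal folds, with none falling. IFIT3, which stabilises RNA-binding IFIT complexes, was 129, 79.1 and 285 CPM in SOT libraries, 205, 149.6 and 162 CPM in untreated libraries and 23.6, 29.1 and 41.0 CPM in normal libraries. It rose by 2.46 in untreated (adjusted p = 0.00503) and by 2.39 in SOT folds (adjusted p = 0.0123, and 0.0520 without normal replicate 1), or by 1.77 without SOT replicate 3. EPSTI1 rose by 2.20 in untreated (adjusted p = 0.00374) and by 2.42 in SOT folds (adjusted p = 0.00758), SAMD9L rose by 2.25 in untreated folds (adjusted p = 0.00275), and the exonuclease gene ISG20 rose by 2.48 in SOT folds (adjusted p = 0.0174, lost without normal replicate 1 or 2), or by 1.87 without SOT replicate 3. SOT replicate 3 was the highest of the 9 libraries for 30 of the 38, and the highest SOT library for 35. Families whose genes carry only locus numbers were summed over their copies, since reads may be shared between them, a step added after the values were seen. The 4 IFIT copies summed to 181, 108 and 569 CPM in SOT libraries, between 160.1 and 299.7 CPM in untreated libraries and between 41.1 and 79.2 CPM in normal libraries.

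The targets of interferon-gamma split in that library. Of 18 tested, 8 rose in untreated and 6 in SOT folds against normal folds. IDO1, which degrades tryptophan, was 762, 139 and 132 CPM in SOT libraries, 1112, 1261 and 1286 CPM in untreated libraries and 44.0, 49.0 and 41.2 CPM in normal libraries. It rose by 4.77 in untreated folds (SE 0.71, adjusted p = 0.00238) and by 2.94 in SOT folds (adjusted p = 0.0208, lost without normal replicate 1, 2 or 3), or by 1.62 without SOT replicate 1. CD274, the checkpoint ligand PD-L1, rose by 3.58 in untreated folds (adjusted p = 0.00174) and by 2.39 in SOT folds (adjusted p = 0.0137, and 0.0575 without normal replicate 1), or by 1.64 without SOT replicate 1. CIITA, which controls MHC class II genes, rose by 2.61 in untreated folds (adjusted p = 0.00226). IDO1 and CD274 were at their lowest SOT level in replicate 3, but SOT replicate 2 was close to it. CD274 was at 0.796, 0.272 and 0.241 times the untreated mean in SOT replicates 1, 2 and 3. By contrast, SOT replicate 3 was the highest of the 9 libraries for 13 of the 18, CXCL9 and CXCL11 among them. The 10 guanylate-binding protein copies, summed, were 530.5, 227 and 868 CPM in SOT libraries. Their sum was between 783 and 897 CPM in untreated libraries and between 118 and 205 CPM in normal libraries. SOT replicate 3 was thus within the untreated range for the sum. Even so, 6 of the 10 copies were at their highest of the 9 libraries there, as were 11.5% of all tested genes.

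Of 12 inhibitors, 6 rose in untreated and 5 in SOT folds against normal folds. SOCS3, a feedback inhibitor of JAK kinases, was 271, 97.97 and 24.3 CPM in SOT libraries, 293, 348 and 326 CPM in untreated libraries and 8.28, 17.4 and 16.3 CPM in normal libraries. It rose by 4.52 in untreated folds (SE 0.80, adjusted p = 0.00440) and by 3.23 in SOT folds (adjusted p = 0.0243, lost without normal replicate 1, 2 or 3), or by 2.16 without SOT replicate 1. USP18, which restrains the type I receptor and is itself interferon-induced, ran the other way, with 24.2, 16.9 and 80.5 CPM in SOT libraries, 21.2, 11.97 and 16.4 CPM in untreated libraries and 8.92, 10.97 and 12.7 CPM in normal libraries. USP18 rose in SOT against normal folds by 1.897 (adjusted p = 0.0476, lost in 7 of the 9 leave-one-out fits, with a log2 fold change of 0.95 without SOT replicate 3). SOCS1, the main inhibitor of interferon-gamma signalling, rose by 1.33 in untreated (adjusted p = 0.0126) and by 1.47 in SOT folds (adjusted p = 0.0173, and 0.0654 without normal replicate 1). PTPN6 rose by 1.91 and 1.11, and TNFAIP3 rose by 2.91 in untreated folds (adjusted p = 0.0228, lost in 5 of the 9 leave-one-out fits).

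**Figure D4:**
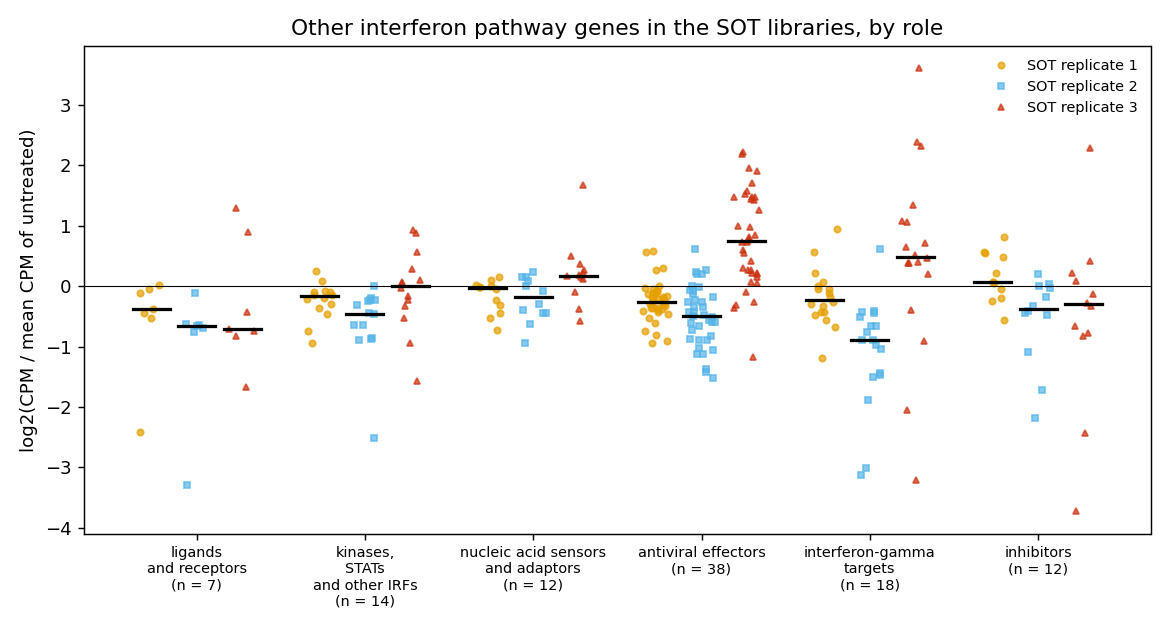
The log2 ratio of each SOT library's CPM to the mean of the untreated libraries for 101 other pathway genes by role, with a black bar at the median. For antiviral effectors the medians of SOT replicates 1, 2 and 3 are -0.27, -0.49 and 0.75, and for ligands and receptors they are -0.37, -0.66 and -0.70.

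Markers of other cells differed among the same libraries. Macrophage markers (12 measured) summed to between 662 and 1030 CPM in SOT libraries, between 1600 and 1893 CPM in untreated libraries and between 288 and 379 CPM in normal libraries, and 10 of the 12 rose in untreated against normal folds. Neutrophil markers (7 measured) summed to 4722, 1770 and 1997 CPM in SOT replicates 1, 2 and 3. Their sums were between 4767 and 7005 CPM in untreated libraries and between 592 and 2043 CPM in normal libraries. For 5 of the 7, SOT replicate 3 was the lowest SOT library, as it was for 34.4% of all tested genes. The exceptions were S100A8 and S100A12, and S100A12 was 733 and 1081 CPM in SOT replicates 2 and 3. SOT replicate 3 had the lowest endothelial sum of the SOT libraries, 623 CPM, against 1678 and 977 CPM in SOT replicates 1 and 2, between 1401 and 1564 CPM in untreated libraries and between 495 and 799.6 CPM in normal libraries. B and plasma cell markers (8 measured) summed to 887, 256 and 1538 CPM in SOT replicates 1, 2 and 3. They summed to between 316 and 716 CPM in untreated libraries and between 841 and 3061 CPM in normal libraries. Most of each sum was JCHAIN, at 868, 246 and 1482 CPM in SOT replicates 1, 2 and 3. SOT replicate 3 was the highest of the 9 libraries for 3 of the 8 markers. Of 10 markers of plasmacytoid dendritic cells, which make much type I interferon, 6 were measured, summing to between 58.6 and 76.4 CPM in SOT, between 75.2 and 78.0 CPM in untreated and between 49.5 and 62.2 CPM in normal libraries, mostly through TCF4, which other cells also express. No measured marker of these lists was at 0 in all libraries. The part of these cells in the interferon results was not tested.

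**Figure D5:**
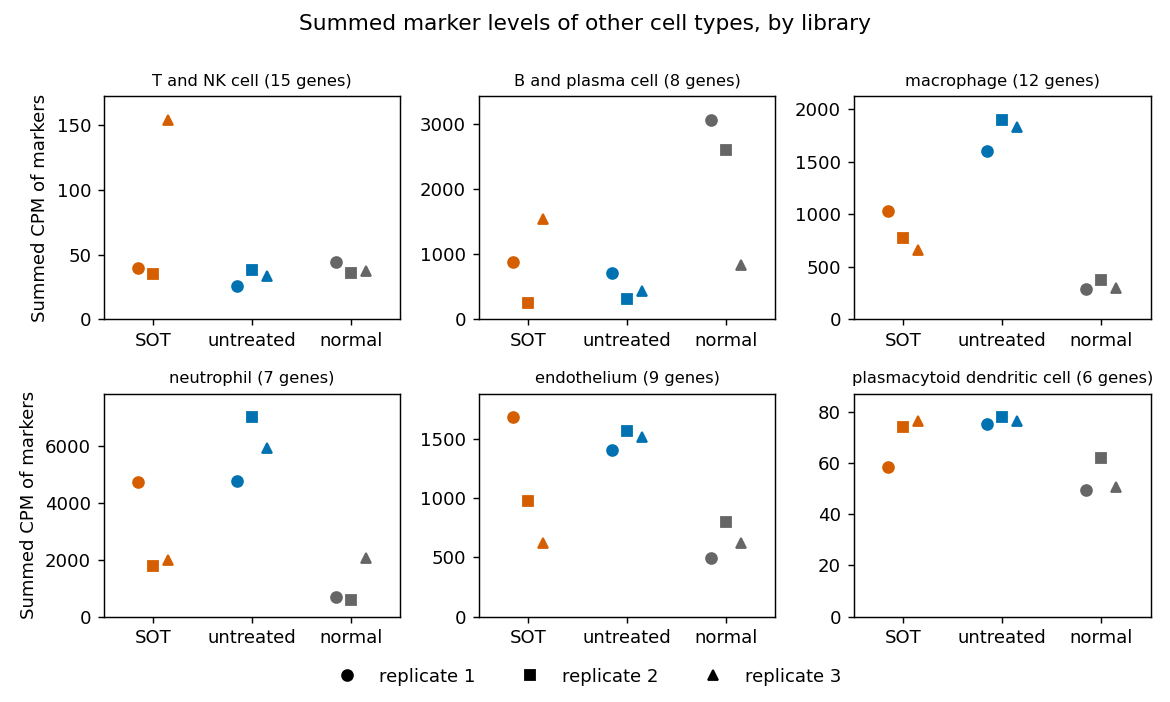
Summed CPM (linear axes from 0) of the measured markers of 6 cell types in SOT, untreated and normal libraries, with replicates 1, 2 and 3 as circles, squares and triangles. SOT replicate 3 is at 154 CPM for T and NK cell markers, above the other 8 libraries at 26.0 to 44.0 CPM, and has the lowest macrophage and endothelial sums of the SOT libraries.

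Genes outside the pathway list with the profile most like the mean of the 9 genes over the 9 libraries were PPCDC, PTPRH, GCNT4, TOP3B, RNF213, ETV7, CMTR1 and TFIP11. Pearson's r was between 0.956 and 0.989, a description over libraries that fall into groups, and the libraries share 1 scaling. RNF213, a large ubiquitin ligase, had 35.8, 32.8 and 89.3 CPM in SOT libraries, 60.8, 53.5 and 61.0 CPM in untreated libraries and 20.3, 25.2 and 25.4 CPM in normal libraries. ETV7, a transcription factor of the ETS family, had 13.9, 7.46 and 38.1 CPM in SOT libraries, 15.4, 12.6 and 14.9 CPM in untreated libraries and 5.62, 6.16 and 5.20 CPM in normal libraries. Of the 9 genes themselves, DDX58 had the highest r with their common profile, 0.978, and IRF1 the lowest, 0.883.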

How the data were processed

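Polyadenylated RNA was sequenced in 9 libraries, grouped by sample title. The submitters' processing notes name cutadapt 1.9, HISAT2 2.0.4, StringTie 1.3.4d, edgeR (no version) and the build OryCun2.0. The labels give no role for each tool, no strandedness and no rule for multi-mapping reads. The authors deposited whole-number read counts and FPKM values per gene, per the file headers. Between 53 and 79 genes per library had a count of 1 and between 350 and 419 a count of 4, so the counts may not be raw tallies. Chromosome numbers follow the order of the build's chromosome sequences.

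The tests on counts used edgeR 4.0.16 (R 4.3.3) with filterByExpr, TMM scaling and a quasi-likelihood fit with 1 mean per group over all 9 libraries, with Benjamini-Hochberg adjustment over 17344 genes. SE is the log2 fold change divided by the square root of F, and 95% intervals use the fit's degrees of freedom. The fit was tested on simulated counts. Of 5734 genes named by a locus number, 595 took a symbol from a RefSeq table of mOryCun1.1. Alternatives used limma 3.58.1 and DESeq2 1.42.0. The members, gene lists and rules were chosen with earlier results of these data known. Named pathway genes were every measured ligand and receptor and, per role and comparison, up to 3 with the largest change among those called, or the 1 with the smallest p, and 1 gene so named is not reported here. Where no gene of a role passed, in SOT against untreated folds, these were IL10RB, STAT6, TLR9, IFIT2, CXCL9 and PTPN6 (adjusted p between 0.167 and 0.296). The 8 most alike genes were ranked by Pearson's r.

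Libraries with the same replicate number were not treated as pairs, since the labels do not say that a number marks a pair. Correlations of their deviations from group means were between -0.05 and 0.27. For libraries with different numbers they were between -0.28 and 0.17. With 3 libraries in each group these correlations cannot decide whether the numbers pair the libraries.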

Additional observations from a re-analysis of the deposited data

How the results depend on the processing

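In untreated against normal folds 4 members rose. Leaving out 1 library gave 4 to 9, the fit of the 6 libraries compared 9 and DESeq2 7. Of all tested genes 3074 of 17344 were called higher in the main fit and 1915 to 3254 without 1 library. The fit of the 6 libraries compared called 3392 of 16869 higher and DESeq2 3555 of 17304. The count of other pathway genes that fell was 1, and 2 with RLE size factors, DESeq2, a filter of 1 CPM, either FPKM pseudocount or the 6 libraries compared, and 1 to 2 without 1 library. In SOT against normal folds 8 members rose, with 3 in the fit of the 6 libraries compared and 1 to 9 without 1 library. Of all tested genes 1563 were called higher there, with 692 in the fit of the 6 libraries compared and 577 to 1987 without 1 library. Of other pathway genes 51 rose there, with 18 in the fit of the 6 libraries compared and 9 to 57 without 1 library, and 1 fell, with 2 by DESeq2, 0 in the fit of the 6 libraries compared and 0 to 2 without 1 library. In SOT against untreated folds the count of other pathway genes that fell was 0, with 5 by DESeq2 and 0 to 5 without 1 library. The cause of these shifts beyond the number of libraries was not tested.

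With the replicate number as a block, 6, 0 and 7 members were called for untreated over normal, SOT over untreated and SOT over normal folds. In the same order 57, 0 and 37 other pathway genes rose, where 2893, 0 and 1236 of all 17344 tested genes were called higher. The labels do not say that the numbers pair the libraries.

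Directions in SOT against untreated folds, none of them called, turned when 1 library was left out. The log2 fold changes without 1 library ran from -0.053 to 0.79 for MX1, -0.50 to 0.062 for STAT2, -0.039 to 1.52 for IRF7, -0.024 to 0.34 for IRF9, -0.35 to 0.51 for IFIH1 and -0.41 to 0.18 for DDX58. Among other pathway genes they ran from -0.54 to 1.58e-05 for DHX58, -0.37 to 0.088 for TMEM173, -0.17 to 0.22 for MB21D1, -0.69 to 0.28 for IFIT3, -0.34 to 0.49 for EPSTI1, -0.20 to 1.68 for CXCL11 and -0.0496 to 0.37 for SOCS1. CXCL9 ran from -0.33 to 0.13 in untreated against normal folds. DDX58 turned to 0.0083 with limma after quantile normalization, and MB21D1 to 0.035 and 0.038 with limma on log2(FPKM + 0.1) and log2(FPKM + 1). With log2(FPKM + 0.1) the median of all tested genes moved to 0.13 in SOT against untreated and 0.12 in SOT against normal folds. Every member was above the filter on low counts, and what limited the calls was not tested.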
